A study of Mus musculus with 10 samples.

Results

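Retinoic acid is made from vitamin A (retinol) and acts through nuclear receptors. The 9 genes described here cover its receptors, except Rxrg, and steps that bring it to them. They are the receptor genes Rara, Rarb, Rarg, Rxra and Rxrb, the binding protein genes Crabp1 and Crabp2, the synthesis gene Aldh1a2 and the uptake gene Stra6. The set was chosen by symbol, with no condition on the values, though it and the gene lists below were chosen with earlier results of these data known. All 9 have a row among the 13578 genes of the deposited table. RNA came from the Oct4-negative somatic cells sorted from the gonads of single female embryos at embryonic day 13.5. All 10 embryos were Gulo-/- on a C57BL/6 background, so that they could not make vitamin C and depended on what the dam ate. In 5 of them the colony's diet supplied physiological vitamin C (supplied), and in 5 vitamin C was withdrawn over the first weeks of gestation (withdrawn). The comparison asks how transcription in the gonadal soma differs between them. No embryo with functional Gulo was part of the comparison.

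Retinol enters cells through STRA6, a receptor for retinol-binding protein, and is oxidised to retinaldehyde and then, by ALDH1A2 and related enzymes, to retinoic acid. In the cytosol CRABP1 and CRABP2 bind retinoic acid, and CRABP2 is known to hand it to the receptors. The receptors RAR alpha, beta and gamma pair with an RXR on direct repeats in DNA and switch target genes on when the ligand is bound, while enzymes of the CYP26 family degrade it. In the fetal ovary retinoic acid is best known as a signal from the soma and the adjoining mesonephros that is linked to the entry of germ cells into meiosis.

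Rarb is a textbook target of the pathway it belongs to, and its promoter shows the element. The 250 bases before each start site that RefSeq lists (build GRCm38.p6) were searched on both strands for direct repeats of the 6-base half-site AGGTCA, with A or G allowed for its opening A and G or T for its second G, spaced by 1, 2 or 5 bases (DR1, DR2, DR5). Of the 9 genes 8 had a promoter in the table, 17 promoters in all; Crabp2 had none there. A repeat was found in 1 of these 17, the DR5 of Rarb, and a DR5 stood in 29 of 32851 promoters (0.0883%), while any of the 3 spacings stood in 140 (0.426%). The stretch of Rarb printed below, repeat and flanking bases together, lies at chr14:16575507-16575535 on the minus strand. The DR5 within it lies at positions -53 to -37 from the start site. Of 48 genes of the pathway lists below that had a promoter there, 2 held a repeat, Bco1 a DR1 and Cyp26a1 a DR5. The promoter of Cyp26a1, which codes for a retinoic acid degrading enzyme and has no measured expression here, is shown for comparison (printed stretch chr19:37697770-37697798, plus strand). It holds a DR5 that reads in the opposite orientation, at positions -32 to -16. Capitals mark the repeats, and both are printed 5′ to 3′ on the strand of the gene.
Rarb: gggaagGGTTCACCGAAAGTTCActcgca
Cyp26a1: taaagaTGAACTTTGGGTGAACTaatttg
A match of letters is a description and says nothing of binding in these cells.

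Values are regularised log2 (rlog) values, which the authors computed and which pull weakly expressed genes towards their mean, so that changes are understated. The read depth is unknown, and the sample medians lay between 9.12 and 9.14. Defining markers of gonadal soma were present, with Wt1 at a mean of 12.99, Emx2 at 12.38, Gata4 at 12.08 and Nr5a1 at 11.35, and the female supporting cell gene Foxl2 at 9.50. Of 11 germ cell markers 4 were measured, with Nanos3 at 4.42, Tfap2c at 4.66 and Tdrd1 at 5.87, while Kit, which somatic cells also express, was at 9.79. Markers of stroma (9 of 9 measured), mesonephros (9 of 10), surface epithelium (6 of 7), endothelium (8 of 8), blood (7 of 7) and macrophages (7 of 7) had values too. The highest of each list were Col3a1 of stroma at 15.99, Hbb-y of blood at 14.63 and Kdr of endothelium at 11.68. For surface epithelium it was Krt18 at 10.88, for mesonephros Pax8 at 9.78 and for macrophages Csf1r at 9.60. The sorted cells were thus a mixture, with some stromal and blood genes above Wt1. The 5 embryos of a group are labelled biological replicates. The titles of embryos 2 and 3 begin with a common number in either group, and no label says whether they were litter mates, so the p-values speak only for the variation among these 10 embryos.

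None of the 9 genes differed between withdrawn and supplied embryos past the threshold. By limma with Benjamini-Hochberg adjustment over all genes 0 of 9 passed an adjusted p of 0.05, where 0.0221% of all genes did, and the smallest limma adjusted p among the 9 was 0.928, that of Rxra. At an unadjusted limma p under 0.05 stood 1 of the 9, Rxra, beside 5.30% of all genes. The groups overlapped in all 9, whereas 0.810% of all genes showed no overlap. Changes, given throughout on the rlog (log2) scale and positive where withdrawn embryos held more, ran from -0.092 to 0.10 with a median of 0.025 (all genes 0.00021), 6 above 0 and 3 below. Their 95% intervals reached at most 0.28 from 0, at the lower end for Crabp2.

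**Figure D1:**
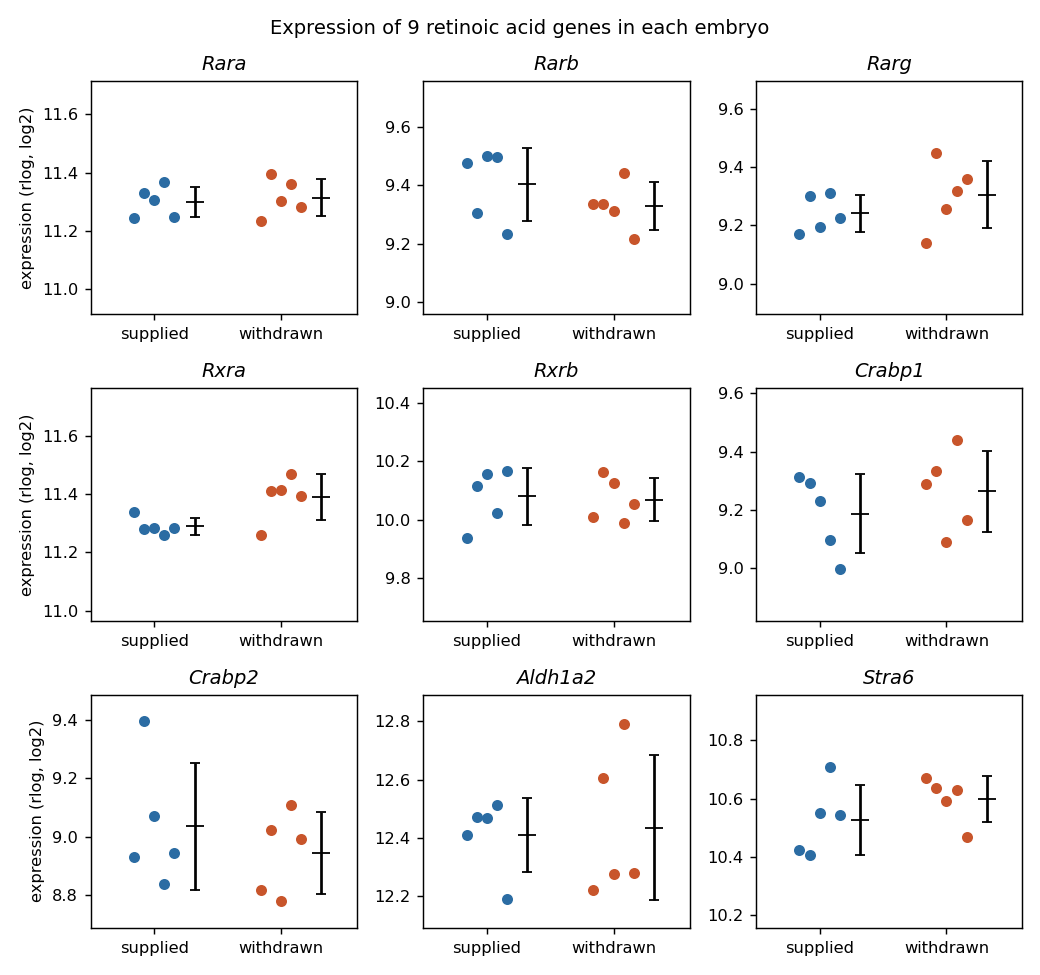
Expression of each of the 9 genes (rlog, log2) in the 5 supplied (blue) and 5 withdrawn (orange) embryos, points from left to right being embryos 1 to 5 and bars the mean ± SD. Every panel spans the same height of the log2 scale, and in each the groups overlap; the widest scatter is that of Aldh1a2 and Crabp2.

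Among the RXR genes, which code for the shared partners of the retinoic acid receptors, Rxra was the gene nearest to a difference. Supplied embryos 1 to 5 held 11.34, 11.28, 11.28, 11.26 and 11.28, and withdrawn embryos 1 to 5 held 11.26, 11.41, 11.41, 11.47 and 11.39. Withdrawn embryos 2 to 5 lay above every supplied embryo, and withdrawn embryo 1 lay at the level of the lowest supplied one. The means were 11.29 ± 0.0288 and 11.39 ± 0.0787 (SD, n = 5 each), a change of 0.10 (95% interval 0.0072 to 0.19, limma adjusted p = 0.928). The two-sided exact permutation test of this 1 gene gave p = 0.0476, not adjusted for the other genes. Without withdrawn embryo 1 the change was 0.13 (limma adjusted p = 0.771), and without the 3 libraries of highest Fos (supplied 4, withdrawn 2 and 3), an immediate early gene that ranged from 9.81 to 12.58, it was 0.078 (limma adjusted p = 0.999). Over 23 alternative fits the limma adjusted p of Rxra ran from 0.733 to 0.9997. Rxrb, the second RXR gene, was at 9.94, 10.12, 10.16, 10.02 and 10.17 in supplied and at 10.01, 10.16, 10.12, 9.99 and 10.06 in withdrawn embryos. Its change of -0.011 (95% interval -0.12 to 0.0998, limma adjusted p = 0.999) was smaller than the SD of either group (0.0985 and 0.0741), and its sign turned without supplied embryo 3 or 5 or withdrawn embryo 1 or 4. Rxrg, the RXR gene outside the 9 and counted with the partners below, had low means of 4.82 in supplied and 4.81 in withdrawn embryos (change -0.017, limma adjusted p = 0.991).

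The 3 RAR genes, which code for the receptors that bind retinoic acid itself, each varied within a group by as much as between groups. Rara, the RAR expressed most highly per length, was at 11.25, 11.33, 11.31, 11.37 and 11.25 in supplied and at 11.23, 11.39, 11.30, 11.36 and 11.28 in withdrawn embryos. Nearly the same range was covered by both groups, and the change was 0.015 (95% interval -0.078 to 0.11, limma adjusted p = 0.998), or -0.0049 without withdrawn embryo 2. Rarb was at 9.48, 9.31, 9.50, 9.50 and 9.23 in supplied and at 9.34, 9.34, 9.31, 9.44 and 9.22 in withdrawn embryos. Supplied embryos 1, 3 and 4 held more of it than any withdrawn embryo, while supplied embryos 2 and 5 lay among the withdrawn ones. The change of Rarb, the gene with the DR5 element, was -0.075 (95% interval -0.20 to 0.050, limma adjusted p = 0.978), and leaving out supplied embryo 5 gave -0.12, leaving out withdrawn embryo 5 -0.046. Rarg was at 9.17, 9.30, 9.20, 9.31 and 9.23 in supplied and at 9.14, 9.45, 9.26, 9.32 and 9.36 in withdrawn embryos, where both the lowest and the highest value of the 10 occurred. Its change was 0.064 (95% interval -0.052 to 0.18, limma adjusted p = 0.985), and it was 0.028 without withdrawn embryo 2 and 0.11 without withdrawn embryo 1.

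Rarb carries a further uncertainty, since its exons share 1793 bases with Top2b, a topoisomerase gene on the opposite strand, in the GENCODE M21 annotation. An antisense gene, Gm48162, which has no row in the table, shares 227 more. The sources used here do not state whether reads were counted by strand, so reads of the overlap cannot be assigned. Top2b stood at 13.09 ± 0.0487 in supplied and 13.03 ± 0.0839 in withdrawn embryos, far above Rarb, with a change of -0.051 (limma adjusted p = 0.989). With group means removed, Rarb and Top2b correlated over the 10 embryos at r = 0.28 (permutation p = 0.412; rho = 0.31, permutation p = 0.410), and at r = 0.091 without supplied embryo 5 and withdrawn embryo 5. The other 8 genes share no exon bases with another gene in that annotation.

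The genes for the cytosolic binding proteins had changes of opposite sign, neither past the threshold. Crabp1 was at 9.31, 9.29, 9.23, 9.10 and 8.998 in supplied and at 9.29, 9.33, 9.09, 9.44 and 9.16 in withdrawn embryos, a change of 0.077 (95% interval -0.072 to 0.23, limma adjusted p = 0.989). It was 0.029 without supplied embryo 5, 0.033 without withdrawn embryo 4 and 0.12 without withdrawn embryo 3. Crabp2 was at 8.93, 9.40, 9.07, 8.84 and 8.94 in supplied and at 8.82, 9.02, 8.78, 9.11 and 8.99 in withdrawn embryos. Supplied embryo 2 held the most Crabp2 of all, and the other 9 embryos of both groups intermingled. Its change of -0.092 (95% interval -0.28 to 0.096, limma adjusted p = 0.991) was smaller than the SD among supplied embryos (0.218), and leaving out supplied embryo 2 gave -0.0015. Leaving out withdrawn embryo 1 or 3 or supplied embryo 4 gave -0.059, -0.050 and -0.14. Taken within each embryo, Crabp1 minus Crabp2 was 0.15 ± 0.187 in supplied and 0.32 ± 0.107 in withdrawn embryos (SD, n = 5 each). The range of this difference was -0.10 to 0.39 in supplied and 0.17 to 0.47 in withdrawn embryos, so the groups overlapped in this balance as well.

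Aldh1a2, whose product makes retinoic acid from retinaldehyde, was the most variable of the 9 genes. It was at 12.41, 12.47, 12.47, 12.51 and 12.19 in supplied and at 12.22, 12.60, 12.28, 12.79 and 12.28 in withdrawn embryos. Withdrawn embryos 2 and 4 were the highest of all 10, and the other 3 withdrawn embryos lay below every supplied embryo but supplied embryo 5. The group means were 12.41 ± 0.128 and 12.44 ± 0.250 (SD, n = 5 each), a change of 0.025 (95% interval -0.17 to 0.22, limma adjusted p = 0.998). Its sign turned without supplied embryo 5 (-0.030), withdrawn embryo 2 (-0.017) or withdrawn embryo 4 (-0.064). The residual SD of Aldh1a2, 0.198, stood above that of 98.6% of all genes, that of Crabp2, 0.184, at 98.1% and that of Crabp1, 0.137, at 94.3%, whereas Rara at 0.0582 and Rxra at 0.0592 stood at 27.9% and 29.4%. Stra6, the retinol uptake receptor gene, was at 10.43, 10.41, 10.55, 10.71 and 10.54 in supplied and at 10.67, 10.64, 10.59, 10.63 and 10.47 in withdrawn embryos. Supplied embryo 4 was highest and the change was 0.073 (95% interval -0.049 to 0.19, limma adjusted p = 0.978). It was 0.12 without supplied embryo 4, where the unadjusted limma p was under 0.05 (limma adjusted p = 0.794), 0.047 without supplied embryo 1 and 0.042 without supplied embryo 2.

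**Figure D2:**
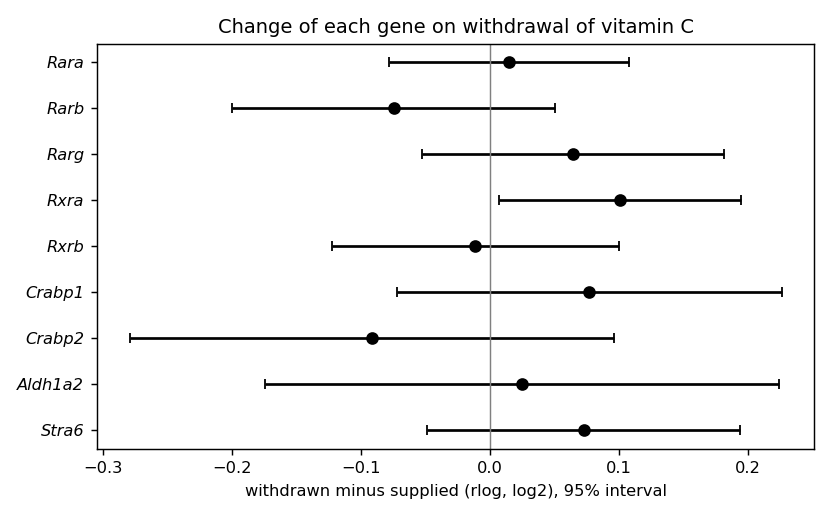
Change of each of the 9 genes, in rlog (log2) units and positive where withdrawn embryos held more, with the 95% interval from limma as bars. The interval of Rxra, 0.0072 to 0.19, is the 1 that lies clear of 0 before adjustment, and the intervals of Aldh1a2 and Crabp2 are the widest.

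To set the genes beside each other, log2 of the exon length in kb (GENCODE M21) was subtracted from the rlog value. With the length of all exons together, Aldh1a2 came first at a mean of 11.24 over the 10 embryos (range 11.01 to 11.61), with no overlap with the next gene. Crabp1 followed at 9.54, Rara at 9.18, Rxra at 8.89, Crabp2 at 8.59, Rxrb at 8.08, Stra6 at 8.02, Rarg at 7.18 and Rarb at 6.97. The ranges of Rxra and Crabp2, of Rxrb and Stra6, and of Rarg and Rarb overlapped. Within embryos, Rxra stood above Crabp2 in 9 of 10, Rxrb above Stra6 in 7 and Rarg above Rarb in 9. With the longest coding transcript instead, Aldh1a2 stayed first at 11.24 with no overlap, and several orders changed. Rara (9.55) and Crabp1 (9.54) overlapped, Crabp2 (9.09) came above Rxra (9.04), and Rarb (7.73) came above Rarg (7.71), both pairs with overlap. Stra6 (8.94, range 8.78 to 9.09) came above Rxrb (8.68, range 8.54 to 8.77) in 10 of 10 embryos with no overlap, so the relation of these 2 depends on the length used. Under both lengths Crabp1 stood above Crabp2, Rxra above Rxrb, and Rara above Rarb and Rarg on this per-length level scale. With the longest coding transcript the ranges of Crabp1 and Crabp2 overlapped, while Crabp1 was the higher in 10 of 10 embryos.

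The other genes of the pathway did not pass either: of 50 measured in 4 lists, 0 rose and 0 fell by limma (0.0221% of all genes passed), 33 changes lay above 0 and 17 below, and the median was 0.017. At an unadjusted limma p under 0.05 stood 6 of the 50, 5 above 0 and 1 below, where 5.30% of all genes did. Of genes for synthesis and retinol handling, 13 of 25 were measured, 6 above 0 and 7 below with a median of -0.0028. Among those of smallest p were the alcohol dehydrogenase gene Adh1 (-0.081) and the retinal reductase gene Dhrs4 (-0.084), with limma adjusted p of 0.931 and 0.963. Of the degrading enzymes 1 of 3 was measured, Cyp26b1, with means of 8.61 ± 0.161 and 8.68 ± 0.128 and a change of 0.071 (95% interval -0.085 to 0.23, limma adjusted p = 0.991).

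Coactivators and corepressors of the receptors lay mostly above 0, each by little. Of 17 such partners and cofactors, all measured, 14 were above 0 and 3 below, with a median of 0.031. Ncoa1 and Ncoa2, coactivators that nuclear receptors recruit when ligand is bound, had the smallest p of the list at 0.11 each (95% intervals 0.018 to 0.21 and 0.014 to 0.20, both limma adjusted p = 0.928). Ncoa1 was at 10.79, 10.59, 10.74, 10.78 and 10.69 in supplied and at 10.85, 10.86, 10.85, 10.80 and 10.78 in withdrawn embryos. All withdrawn embryos but embryo 5 lay above all supplied ones. The ligand-dependent corepressor gene Lcor was at 0.076 (limma adjusted p = 0.956).

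Among genes known to respond to retinoic acid, 19 of 24 were measured, 12 above 0 and 7 below, with a median of 0.016. Rec8, a meiotic cohesin gene that retinoic acid induces in germ cells, had the smallest p. It was at 9.50, 9.65, 9.64, 9.55 and 9.85 in supplied and at 9.20, 9.10, 9.45, 8.86 and 9.18 in withdrawn embryos, so that the groups did not overlap. Its change of -0.48 (limma adjusted p = 0.0654) missed the threshold, which it passed without withdrawn embryo 3 (-0.55, limma adjusted p = 0.0121) or without the 3 libraries of highest Fos (-0.58, limma adjusted p = 0.0333). With the stromal marker mean, described next, as a covariate it was -0.34 (limma adjusted p = 0.9997), in a fit that can hardly separate group from covariate. The limma adjusted p of the other alternatives lay between 0.0625 and 0.289. Of the 4 measured germ cell markers 2 had changes above 0 and 2 below, and 1 of them, Tdrd1, had an unadjusted limma p under 0.05, at -0.20 (limma adjusted p = 0.167), the same sign as Rec8. Their mean level was 6.16 to 6.28 in supplied and 6.10 to 6.28 in withdrawn embryos, and their part in the Rec8 values was not tested. Pdgfra, a receptor gene of the stroma, was at 0.15 (limma adjusted p = 0.900) and the homeobox gene Meis1 at 0.11 (limma adjusted p = 0.931).

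**Figure D3:**
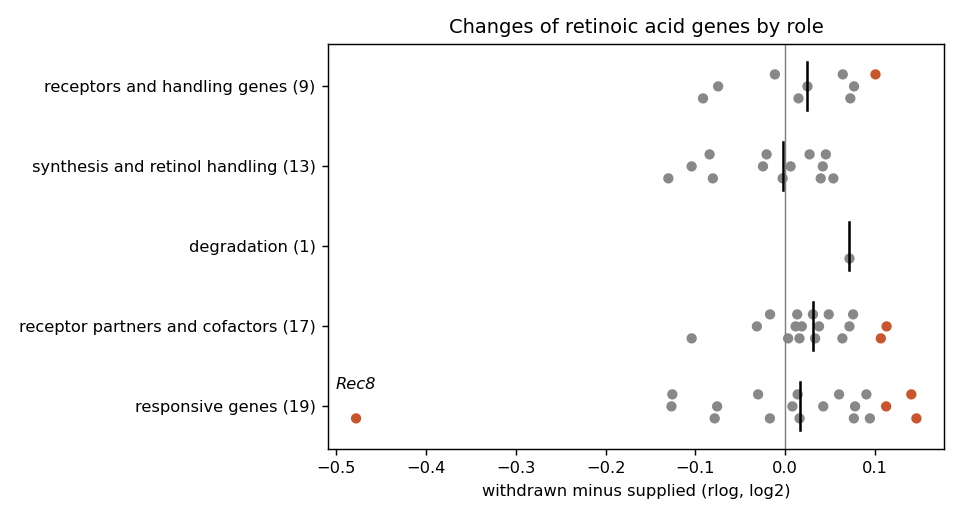
Changes, in rlog (log2) units and positive where withdrawn embryos held more, of the 9 genes and of the measured genes in 4 lists of the retinoic acid pathway, with the number measured in brackets. Points are genes, orange where the unadjusted limma p was under 0.05, vertical bars are list medians, and the points are spread in height only for legibility; Rec8 at -0.48 stands apart from the rest, which lie between -0.13 and 0.15.

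Markers of stroma had mostly positive changes, as most of the genes above. The mean of the 9 stromal markers was 12.57 to 12.70 in supplied and 12.69 to 12.81 in withdrawn embryos, so that the ranges barely overlapped. Of the 9, 7 had changes above 0 and 0 passed by limma, 3 having an unadjusted limma p under 0.05. Pdgfra and Nr2f2 belong to this list and to the retinoic acid responsive genes. With the stromal mean as a covariate the change of Aldh1a2 was -0.11, that of Stra6 -0.0076 and that of Rarb -0.19, while Rxra was at 0.094, Rarg at 0.050 and Crabp1 at 0.0044, and all 9 had a limma adjusted p of 0.9997. In that fit Rarb alone of the 9 had an unadjusted limma p under 0.05 (0.0112). As the stromal mean nearly separated the groups, that fit can hardly tell a group difference from the covariate. Rxra nearly kept its change there, yet its unadjusted limma p was 0.136. With the mesonephric marker mean as a covariate instead, Aldh1a2 was at 0.030, Stra6 at 0.079, Rarb at -0.089 and Rxra at 0.11, none of the 9 past the threshold. The endothelial mean was 9.12 to 9.34 in supplied and 9.04 to 9.17 in withdrawn embryos, with 7 of 8 markers below 0 and 1 of them, Eng, at an unadjusted limma p under 0.05. The surface epithelial mean was 10.05 to 10.17 and 9.93 to 10.11, with 4 of 6 below 0, of which Krt7 and Krt8 had an unadjusted limma p under 0.05 and Krt7 showed no overlap. The macrophage mean was 7.58 to 7.85 and 7.52 to 7.78, with 5 of 7 below 0, of which Lyz2 and Itgam had an unadjusted limma p under 0.05, and the mesonephric mean was 8.23 to 8.41 and 8.17 to 8.42, with 8 of 9 below 0. The blood marker mean was 9.04 to 9.89 in supplied and 9.14 to 9.82 in withdrawn embryos, with 5 of 7 markers below 0. No marker of these lists passed by limma after adjustment. Their part in the changes was not tested. In bulk RNA, fewer cells of a type and less RNA per cell cannot be told apart.

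Beyond the groups, the 9 genes varied among embryos, with the closest relation between Aldh1a2 and Rara, though none passed. Correlations were taken over the 10 embryos with group means removed, with permutation p-values from 100000 resamples, two-sided and adjusted over all 36 pairs. Of the 36 pairs 26 had r above 0, with a median of 0.29, and 0 passed after adjustment, while 4 had an unadjusted permutation p under 0.05 by Pearson and 3 by Spearman. Rara with Aldh1a2 had r = 0.81 (permutation p = 0.00929, adjusted 0.214) and rho = 0.85 (permutation p = 0.00501), and r was 0.75 without withdrawn embryos 1 and 2. Rara with Rarg had r = 0.80 (permutation p = 0.0119, adjusted 0.214) and rho = 0.84 (permutation p = 0.00811), and r was 0.58 without the same embryos. Aldh1a2 with Crabp1 had r = 0.71 (permutation p = 0.0372, adjusted 0.335) and rho = 0.71 (permutation p = 0.0401), and r was 0.55 without supplied embryo 5 and withdrawn embryo 3. Aldh1a2 with Rarb had r = 0.64 (permutation p = 0.0187, adjusted 0.225) and rho = 0.60 (permutation p = 0.0874), and r was 0.43 without embryo 5 of each group. The binding protein genes Crabp1 and Crabp2 had r = 0.58 (permutation p = 0.0954, adjusted 0.590) and rho = 0.54 (permutation p = 0.139), and r was 0.48 without supplied embryo 5 and withdrawn embryo 3. The lowest r of all pairs was that of Crabp2 with Stra6, -0.51 (permutation p = 0.205, adjusted 0.590), with rho = -0.37 (permutation p = 0.320), and r was -0.41 without supplied embryo 2 and withdrawn embryo 4.

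**Figure D4:**
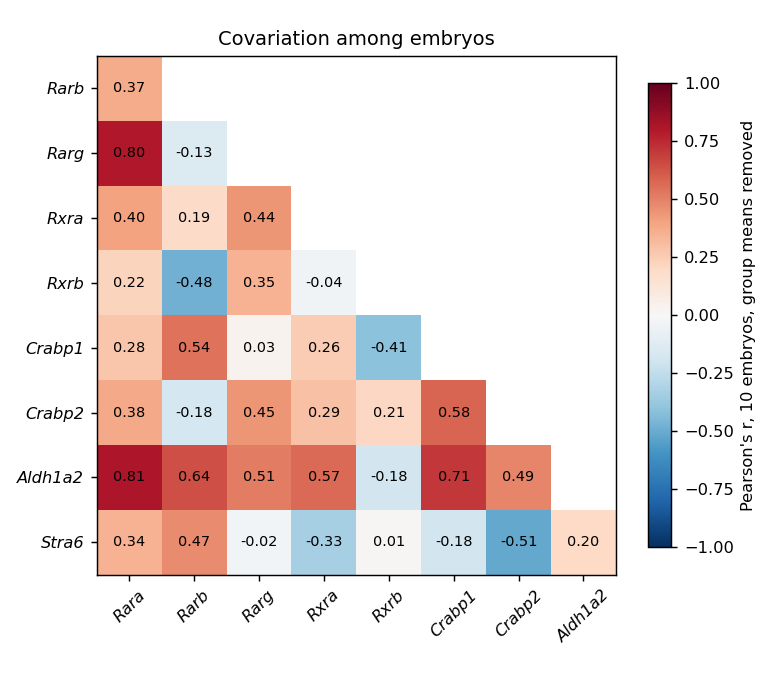
Pearson's r for each of the 36 pairs of the 9 genes over 10 embryos, with the mean of each group removed. Red is positive and blue negative; Aldh1a2 has its highest values with Rara (0.81) and Crabp1 (0.71), and none of the pairs passed after adjustment.

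Aldh1a2 and Rara were higher in embryos with lower levels of gonadal somatic markers. The mean of 14 such markers (Wt1, Gata4, Nr5a1, Foxl2 and others) ranged from 11.13 to 11.32 in supplied and from 11.13 to 11.27 in withdrawn embryos, and it was lowest in supplied embryo 4 and withdrawn embryos 4 and 2. Of 72 correlations of the 9 genes with 8 marker lists, 2 passed after adjustment by both Pearson and Spearman. Aldh1a2 with the gonadal somatic mean had r = -0.85 (permutation p = 0.00027, adjusted 0.0194) and rho = -0.90 (permutation p = 0.00058, adjusted 0.0335). Rara had r = -0.92 (permutation p = 0.00091, adjusted 0.0328) and rho = -0.92 (permutation p = 0.00093, adjusted 0.0335). Without supplied embryo 5 and withdrawn embryo 4, the farthest from the median of Aldh1a2, r was -0.81 (exact permutation p = 0.00694, adjusted 0.300). Without withdrawn embryos 1 and 2, the farthest for Rara, r was -0.91 (exact permutation p = 0.00833, adjusted 0.300), and with 8 embryos at least 3 of the 72 would have to reach the smallest possible p for any to pass. Supplied embryo 4 and withdrawn embryo 2 are among the 3 libraries of highest Fos. Without those 3, r over 7 embryos was -0.93 for Aldh1a2 (exact permutation p = 0.0139, rho = -0.93, exact permutation p = 0.0208) and -0.89 for Rara (exact permutation p = 0.0417, rho = -0.79, exact permutation p = 0.111), with adjusted values for r of 0.333 and 0.583. In the same 7 embryos the surface epithelial mean had r of -0.98 with Rara (exact permutation p = 0.00694, rho = -1.0, exact permutation p = 0.0139), -0.89 with Crabp2 (exact permutation p = 0.00694, rho = -0.93, exact permutation p = 0.0139) and -0.78 with Aldh1a2 (exact permutation p = 0.0486, rho = -0.89, exact permutation p = 0.0556). Their adjusted values for r were 0.250, 0.250 and 0.583, and over all 10 embryos r was -0.61, -0.26 and -0.42, so negative relations were not limited to the gonadal somatic list. The p of 0.00694 is the smallest that these 7 embryos can give, so adjustment over 72 correlations left little room for any to pass. Over all 13578 genes, 34 had an r with the gonadal somatic mean as low as that of Aldh1a2 (0.250%) and 7 one as low as that of Rara (0.0516%).

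The relation was shared by most of the single markers. Aldh1a2 had a negative r with 12 of the 14 gonadal somatic markers (median -0.52) and Rara with 11 of 14 (median -0.53). The highest single r was 0.76 for Aldh1a2 and 0.58 for Rara. These counts alone did not set Aldh1a2 and Rara apart. Rarb and Rarg each had a negative r with 12 of 14, Stra6 with 11, Crabp1 with 10, Rxra with 9, Crabp2 with 8 and Rxrb with 6. The medians of these other genes lay between -0.41 (Rarb) and 0.025 (Rxrb). How often genes at large reach such counts was not tested. Of the other 7 genes Rarb had the lowest r with the gonadal somatic mean, -0.67 (permutation p = 0.0611, adjusted 0.962; rho = -0.61, permutation p = 0.0958), and r was -0.46 without embryo 5 of each group. With the stromal mean Rarb had r = 0.73 (permutation p = 0.0401, adjusted 0.962; rho = 0.61, permutation p = 0.0894), and r was 0.65 without the same embryos. Whether a varying share of cell types among the sorted cells accounts for these relations was not tested. The lowest gonadal somatic means in both groups went with some of the highest Aldh1a2 values, 12.51, 12.79 and 12.60.

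**Figure D5:**
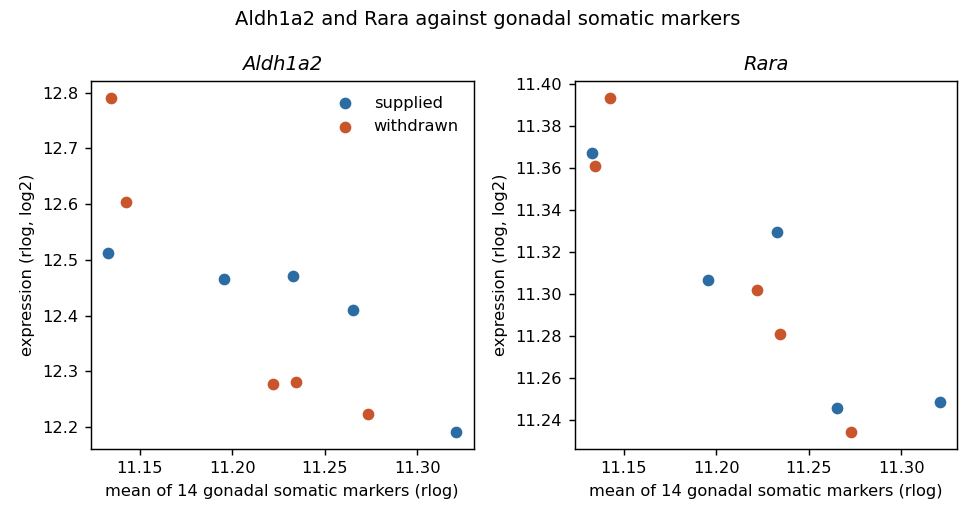
Expression of Aldh1a2 (left) and Rara (right) against the mean of 14 gonadal somatic markers, all on the rlog (log2) scale, 1 point per embryo, supplied in blue and withdrawn in orange. In both groups the points run downwards, with r of -0.85 for Aldh1a2 and -0.92 for Rara once group means are removed.

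The genes whose pattern among embryos was most like that of the 3 most variable genes were read from all genes of the table, by Pearson's r over the 10 embryos with group means removed and with no test. For Aldh1a2 these were Zfp608 (r = 0.96), Bbx (0.96) and Hmga2 (0.95). Withdrawn embryo 4 had the highest and withdrawn embryo 2 the second highest level of all 3, as of Aldh1a2. For Crabp2 they were Tes (0.96), Ppfia3 (0.93) and Nrk (0.93), and for Crabp1 Marcksl1 (0.98), Twist1 (0.96) and Zfand3 (0.96). None of the genes alike in pattern differed between the groups past the threshold, with limma adjusted p from 0.963 to 0.999.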

How the data were processed

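RNA from 10 embryos was sequenced after low-input total RNA library preparation, per the labels' protocols. The authors deposited 1 table of rlog values on a log2 scale, 1 column per embryo. Trim Galore 0.4.0, TopHat2 2.1.1, DESeq2 1.20.1 and build mm9 are named, per the submitters' processing notes; counting, strand and annotation are not given in the sources used here. Depth is unknown, so no count test was run. No gene had the same value in any pair of samples. The 9 genes and all gene lists were chosen with earlier results of these data known. Genes with a mean of at least 3 were tested (all 13578) with limma 3.58.1 in R 4.3.3, with a variance trend, over 5 supplied and 5 withdrawn embryos; the test was tried on simulated data. Named were the 9 genes, the 3 of smallest p in each pathway list and the 3 most alike for the 3 most variable genes, of which 1 is not reported here; others, such as Top2b and Fos, were chosen after their values were seen. Gene positions and lengths came from GENCODE M21 (GRCm38) and promoters from RefSeq, another build than that of the table. Alternatives changed the filter, the variance model, the normalization, the weights, the block and the covariates, averaged embryos or left single ones out. Leaving out the 3 high-Fos libraries, and the 2 farthest embryos in the marker list correlations, was added after seeing the data.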

Additional observations from a re-analysis of the deposited data

How the results depend on the processing

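In all 23 other fits, as in the reported one, 0 of the 9 genes passed. The count over all genes, 3 as reported, was 1 when a mean of 7 was required (fewer genes tested), when the variance trend was dropped, after quantile normalization and after averaging embryos of 1 title number (fewer samples), 5 with robust variance or sample weights, and 0 with the stromal covariate. With single embryos left out it ran from 0 (without supplied embryo 1 or withdrawn embryo 5) to 4, and it was 1 without withdrawn embryo 2 or 4; apart from smaller numbers, the cause was not tested. The pathway count of 0 ran to 1, Rec8, without withdrawn embryo 3 and was 1 without the 3 high-Fos libraries. Both marker list correlations lost their calls (0) without the 2 farthest embryos and without the 3 high-Fos libraries, with fewer samples in each. With so few embryos left the smallest possible p was large for this adjustment, so these counts of 0 say little about the relations. Signs turned for Rxrb with sample weights (0.0042), and with the stromal covariate for Rara (-0.015), Rxrb (0.028), Crabp2 (0.010), Aldh1a2 (-0.11) and Stra6 (-0.0076). The stromal mean nearly separated the groups, so that fit says little about the group changes. With single embryos left out Rara ranged from -0.0049 to 0.035, Rxrb from -0.047 to 0.010 and Aldh1a2 from -0.064 to 0.078. Rarb (-0.12 to -0.046), Rarg (0.028 to 0.11), Rxra (0.081 to 0.13) and Crabp1 (0.029 to 0.12) kept their sign in all 23 fits, Crabp1 at 0.0044 with the stromal covariate; the ranges are those with single embryos left out, and Crabp2 and Stra6 ranged from -0.14 to -0.0015 and from 0.042 to 0.12. With the mesonephric covariate 4 genes passed and 0 of the 9, and no sign of the 9 turned. With the replicate number as a replicate block 2 genes passed and 0 of the 9. Same-numbered embryos correlated at -0.36 to 0.17 in their deviations and 1 of 10 correlated best with its own number. No pairing by number was seen in these values, and whether the numbers mark a shared litter or day is not stated.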

Other observations

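Beside Aldh1a2, the retinaldehyde dehydrogenase genes Aldh1a1 and Aldh1a3 were measured too, while Aldh8a1 of the synthesis list was not. Aldh1a1 stood at 9.61 ± 0.147 in supplied and 9.50 ± 0.234 in withdrawn embryos (SD, n = 5 each; change -0.10, limma adjusted p = 0.987), and Aldh1a3 at 7.60 ± 0.123 and 7.61 ± 0.101 (change 0.0061, limma adjusted p = 0.999). Within each embryo the rlog value of Aldh1a2 minus that of Aldh1a1 ranged from 2.40 to 3.05 in supplied and from 2.51 to 3.63 in withdrawn embryos. Withdrawn embryo 4, the highest in Aldh1a2 (12.79), was the lowest in Aldh1a1 (9.16). The rlog value of Aldh1a2 minus that of the degrading enzyme gene Cyp26b1 was 3.80 ± 0.140 in supplied and 3.75 ± 0.179 in withdrawn embryos. The means of this difference thus lay closer together than the spread within either group.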
